A study of Mus musculus with 12 samples.

Results

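The genes described here encode the proteins of the cytosolic ribosome in the mouse retina. They were chosen by symbol: protein-coding genes whose name starts with Rpl or Rps followed by a digit, or by p and a digit, with the Rps6k kinases left out. The rule took 93 of the 56748 genes in the deposited count table, 57 named Rpl or Rplp and 36 named Rps. Counts were high enough to test 85 of the 93. Most members are the structural proteins the label names, but not all. Rps19bp1 encodes a binding partner of RPS19, Rps23rg1 is a retrogene, and 7 members carry pseudogene-type symbols (-ps) although the table calls them protein-coding. The rule does not reach Rpsa, Fau and Rack1, which also encode ribosomal proteins and are described with the related gene lists.

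A ribosome joins a small subunit, which holds the mRNA and reads its codons, to a large subunit, which forms the peptide bond. Each subunit is a core of ribosomal RNA clad in proteins that are mostly encoded by single genes and mostly present in single copy per subunit. In vertebrates these mRNAs start with a run of pyrimidines through which mTORC1 and LARP1 control their translation, and most of the genes have many processed pseudogene copies in the genome. In the retina, photoreceptors renew their outer segments throughout life and keep up a high rate of protein synthesis.

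Whole retinas came from 4 groups of 3 mice, 1 retina from a separate mouse per library: JR5558 at 8 weeks, C57BL/6J at 8 weeks, JR5558 at 4 weeks and C57BL/6J at 4 weeks. JR5558 mice develop spontaneous subretinal neovascularisation and are known to carry mutations of Crb1 and Jak3; the labels give the strain name only, and they call C57BL/6J the wild-type control. Libraries were made from poly(A) mRNA. The comparisons ask how JR5558 retina differs from C57BL/6J retina at each age, and how each strain differs between 8 and 4 weeks.

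Several members share nearly all of their coding sequence with another expressed gene, so the sequences are shown first. How far the split of counts between such genes shaped the results was not tested, beyond adding the copies' counts to the member. Coding sequences of the GENCODE M21 transcripts (GRCm38) were aligned, positions count from the first base of the start codon, and capitals mark bases that differ within the pair. Rpl3 (ENSMUSG00000060036, chr15:80077791-80091868, minus strand) encodes a large-subunit protein that reaches toward the peptidyl transferase centre. Its processed pseudogene Rpl3-ps1 (chrX:13202571-13203780, plus strand) matches 1207 of its 1212 coding bases, which is 99.59%. Bases 1 to 120 of both hold 1 difference.
Rpl3: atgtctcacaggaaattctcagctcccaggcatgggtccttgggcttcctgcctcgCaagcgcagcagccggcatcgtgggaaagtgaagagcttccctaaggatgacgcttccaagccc
Rpl3-ps1: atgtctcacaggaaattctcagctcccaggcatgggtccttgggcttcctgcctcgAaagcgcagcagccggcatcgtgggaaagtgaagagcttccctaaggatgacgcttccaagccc

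Rps13 (ENSMUSG00000090862, chr7:116331505-116334195, minus strand) encodes a small-subunit protein. Its processed pseudogene Rps13-ps1 (chr8:87047689-87048226, plus strand) matches 454 of 456 coding bases, or 99.56%. Both differences fall in bases 310 to 429.
Rps13: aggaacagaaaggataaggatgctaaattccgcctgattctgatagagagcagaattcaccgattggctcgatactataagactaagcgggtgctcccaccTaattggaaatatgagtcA
Rps13-ps1: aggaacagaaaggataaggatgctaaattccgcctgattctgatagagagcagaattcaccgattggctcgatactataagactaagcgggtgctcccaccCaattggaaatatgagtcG

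Rps27 (ENSMUSG00000090733, chr3:90212522-90213651, minus strand) encodes a small-subunit protein. The member Rps27rt (ENSMUSG00000050621, chr9:114982366-114982739, minus strand) carries the same 255 coding bases with no difference, so a read inside that stretch cannot be assigned by sequence. Bases 1 to 120 show this.
Rps27: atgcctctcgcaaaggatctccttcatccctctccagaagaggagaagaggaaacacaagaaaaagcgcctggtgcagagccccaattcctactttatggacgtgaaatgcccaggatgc
Rps27rt: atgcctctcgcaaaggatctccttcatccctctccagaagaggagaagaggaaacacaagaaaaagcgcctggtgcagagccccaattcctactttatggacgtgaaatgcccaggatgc

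The 12 libraries held 18029611 to 23739886 counts, and the correlation of log2 counts was 0.987 to 0.996 within groups. The JR5558 4-week libraries had 0 to 5 counts of Xist and 1323 to 1846 of the Y-linked Ddx3y, while the other 9 libraries had 7772 to 22988 of Xist and 0 of Ddx3y. Sex therefore cannot be told apart from strain at 4 weeks or from age in JR5558. The summed CPM (counts scaled to 1e6 per library) of 8 retinal pigment epithelium markers were 348 to 528 in JR5558 and 147 to 255 in C57BL/6J at 8 weeks, and 282 to 460 in JR5558 and 65.5 to 223 in C57BL/6J at 4 weeks. All 8 were detected in every group, and 7 rose in JR5558 at 4 weeks and 1 at 8 weeks. Over 15 alternative fits, the number past the threshold used below ran from 2 to 7 at 4 weeks and from 0 to 7 at 8 weeks. Of all tested genes, 3.27% rose and 2.90% fell at 4 weeks, and 2.54% rose and 2.63% fell at 8 weeks. Müller glia markers rose in JR5558 for 3 of 4 genes at 4 weeks and 1 of 4 at 8 weeks. Markers of microglia rose for 1 of 6 and 2 of 6 genes. The part of these cells in the values below was not tested, and in whole retina fewer cells of a type and less RNA per cell cannot be told apart.

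Ribosomal protein mRNAs made up 1.08% to 1.53% of all counts. In CPM, normalised with edgeR's TMM factors, the 93 members summed to 13187, 13360 and 15249 in JR5558 at 8 weeks, against 13606, 13870 and 14104 in C57BL/6J at 8 weeks. At 4 weeks the sums were 11040, 11221 and 12333 in JR5558, against 13189, 12242 and 10858 in C57BL/6J. The strains overlapped at both ages. JR5558 sums were higher at 8 weeks than at 4 weeks in all libraries, at 13932 ± 1144 against 11531 ± 700 CPM (SD, n = 3 each). C57BL/6J sums also did not overlap between ages, at 13860 ± 249 CPM at 8 weeks and 12097 ± 1172 CPM at 4 weeks, where replicate 3 was lowest.

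**Figure D1:**
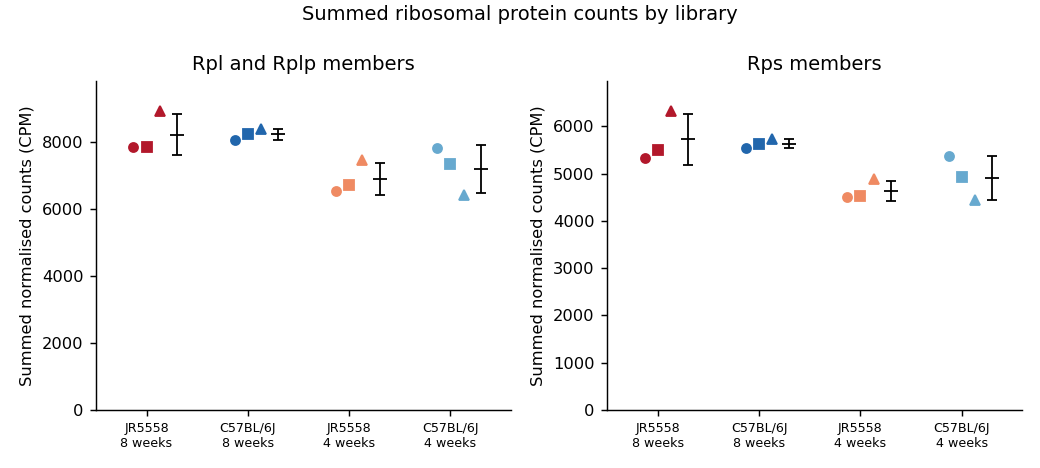
Summed normalised counts (CPM) of the large-subunit members (left) and small-subunit members (right) in each library. Circles, squares and triangles are replicates 1, 2 and 3, and the black mark is the group mean with its SD (n = 3). The 3 JR5558 8-week libraries lie above the 3 JR5558 4-week libraries in both panels.

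Per kilobase of gene length, the members spanned a wide range. Rplp1, of the stalk that recruits elongation factors, averaged 744 CPM per kilobase over the 12 libraries. Rps15 followed with 415 and Rps3a1 with 292 CPM per kilobase, both of the small subunit. The lowest of the tested members were the retrogene Rps23rg1 at 0.125, Rpl10-ps3 at 0.473 and Rpl24 at 1.65 CPM per kilobase. Rpl10-ps3 shares all 645 coding bases of Rpl10, so its counts are uncertain. Copies were looked up by -ps symbol and for a few named pairs, so copies under other symbols are not covered. The level of Rpl24, with no named copy and 1.70 CPM on average, is therefore uncertain too. By contrast, 57 tested members averaged 100 CPM or more. Of the 8 members not tested, Rpl10l, Rps18-ps6, Rplp2-ps1 and Rpl36-ps4 had 0 counts in all 12 libraries, which allows up to 0.0123 CPM each. The other 4 were Rpl3l, Rpl36al, Rpl39l and Rpl36a-ps1, at mean levels of 0.0203 to 0.293 CPM. Rpl3l, Rpl10l and Rpl39l are known as the muscle and testis counterparts of Rpl3, Rpl10 and Rpl39.

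In JR5558 at 4 weeks, against C57BL/6J at 4 weeks, 5 of the 85 tested members fell and none rose (edgeR quasi-likelihood test, Benjamini-Hochberg adjusted p under 0.05 over 18334 genes). Of all tested genes, 2.90% fell and 3.27% rose. At an unadjusted p under 0.05, 10 members were lower and 1 higher, against 9.45% and 9.61% of all genes, and DESeq2 called none higher. The median log2 fold change of the members was -0.04, against -0.0012 over all tested genes. The groups did not overlap for 12 lower members and 1 higher member, against 9.55% and 10.1% of all genes.

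Rpl3 had 227, 215 and 235 CPM in JR5558 at 4 weeks, against 382, 369 and 388 CPM in C57BL/6J. At 8 weeks it had 241, 228 and 245 CPM in JR5558, against 416, 429 and 422 CPM in C57BL/6J. All 6 JR5558 libraries lay below all 6 C57BL/6J libraries, and Rpl3 had the lowest within-group coefficient of variation of the members, 2.87%. Its log2 fold change was -0.75 ± 0.06 (SE) at 4 weeks, with an adjusted p of 2.15e-07, and -0.83 ± 0.06 at 8 weeks, with an adjusted p of 5.97e-08.

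Rpl3-ps1, chosen after its values were seen, ran the other way. It had 105, 123 and 134 CPM in JR5558 at 4 weeks, against 33.9, 31.9 and 34.6 CPM in C57BL/6J, and 135, 144 and 156 CPM in JR5558 at 8 weeks, against 33.6, 30.5 and 32.7 CPM in C57BL/6J. It rose by 1.85 ± 0.10 and 2.17 ± 0.10 on the log2 scale at 4 and 8 weeks (SE, edgeR adjusted p of 1.23e-10 and 1.56e-11). The sum of Rpl3 and Rpl3-ps1 was 332 to 370 CPM in JR5558 and 401 to 423 CPM in C57BL/6J at 4 weeks, and 372 to 401 CPM in JR5558 and 450 to 459 CPM in C57BL/6J at 8 weeks. The sums still did not overlap. With the counts of all named copies added to Rpl3, its log2 fold change was -0.25 at 4 weeks and -0.24 at 8 weeks, with adjusted p of 0.0271 and 0.036.

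Rps13 had 37.6, 51.9 and 34.9 CPM in JR5558 at 4 weeks, against 89.6, 99.1 and 80.9 CPM in C57BL/6J. It fell by 1.12 on the log2 scale (SE 0.28, edgeR adjusted p of 0.02). At 8 weeks JR5558 had 19.7, 59.9 and 74.5 CPM, against 91.1, 83.3 and 93.4 CPM in C57BL/6J. The groups did not overlap at 8 weeks, but replicate 1 of JR5558 stood far below the other two and the edgeR adjusted p was 0.12. Rps13-ps1 had 23.7 to 25.7 CPM in JR5558 and 0.66 to 0.89 CPM in C57BL/6J at 4 weeks, and 25.7 to 35.5 CPM in JR5558 and 0.75 to 1.22 CPM in C57BL/6J at 8 weeks. The summed Rps13 and Rps13-ps1 counts were 60.5 to 76.4 CPM in JR5558 and 81.6 to 99.9 CPM in C57BL/6J at 4 weeks, and overlapped at 8 weeks. With its copies added Rps13 no longer passed the threshold at 4 weeks, at a log2 fold change of -0.46 and an adjusted p of 0.16.

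**Figure D2:**
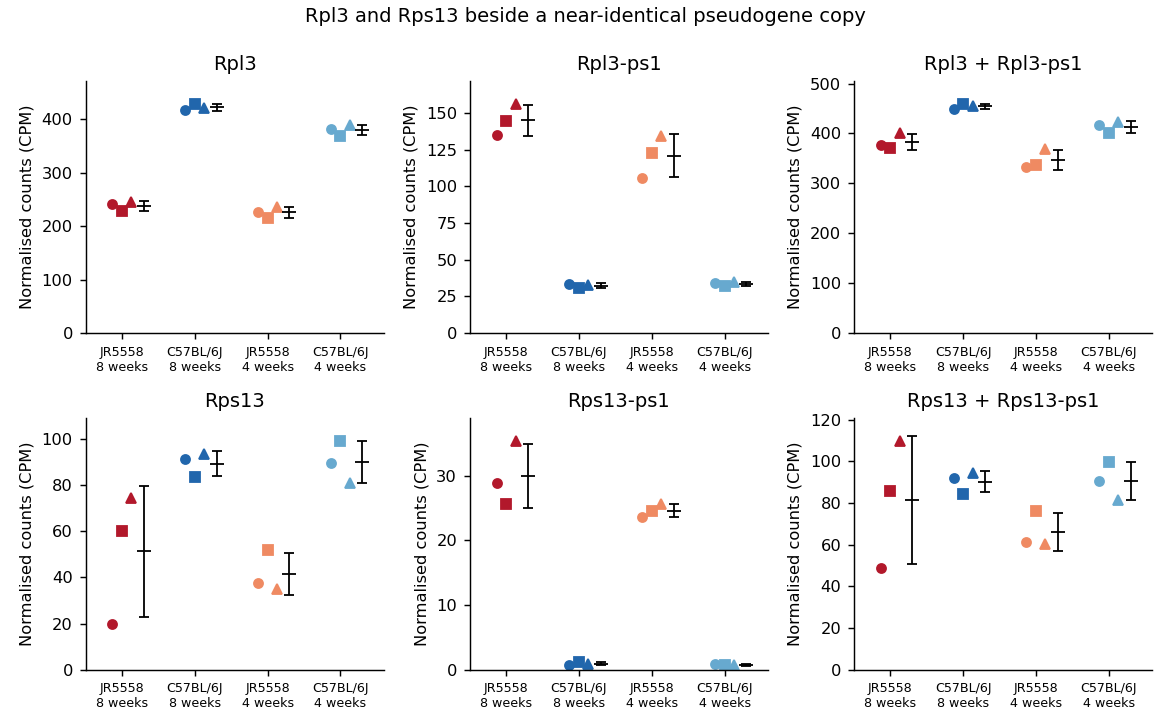
Normalised counts (CPM) of Rpl3 (top) and Rps13 (bottom), of a pseudogene copy of each, and of their sum, by library. Symbols mark replicates 1 (circle), 2 (square) and 3 (triangle), and black marks the group mean with its SD (n = 3). In JR5558 the members are lower and the copies higher than in C57BL/6J at both ages.

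Rps2, a small-subunit protein by the mRNA entry channel, had 133, 132 and 135 CPM in JR5558 at 4 weeks, against 197, 185 and 171 CPM in C57BL/6J. It fell by 0.47 (SE 0.07, edgeR adjusted p of 0.000352), and by 0.37 with its copies added (adjusted p of 0.00473). Its copies Rps2-ps13, on chromosome X, and Rps2-ps6 both rose, with edgeR adjusted p of 0.039 and 8.43e-05. Rps2-ps13 rose by 0.66 on the log2 scale. A further copy, Rps2-ps10, fell by 0.76 (edgeR adjusted p of 0.0449), although its groups overlapped, at 3.80, 5.49 and 6.82 CPM in JR5558 and 9.19, 11.3 and 6.82 CPM in C57BL/6J. Of 13 alternatives, 7 ended the call of Rps2-ps13 and 6 that of Rps2-ps10. Rps2-ps6 was at 1.24 to 1.96 CPM in JR5558, against 0 to 0.0531 CPM in C57BL/6J. At 8 weeks Rps2 did not pass, at 169, 184 and 180 CPM in JR5558, against 193, 192 and 210 CPM in C57BL/6J.

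Rpl14, of the large subunit, had 143, 142 and 140 CPM in JR5558 at 4 weeks, against 184, 191 and 175 CPM in C57BL/6J. It fell by 0.37 (SE 0.07, edgeR adjusted p of 0.00289). At 8 weeks its values overlapped between the strains, at 162 to 176 CPM in JR5558 and 171 to 197 CPM in C57BL/6J. Its copy Rpl14-ps1, with 98.93% identity to the coding bases, averaged 23.1 CPM in JR5558 and 27.4 CPM in C57BL/6J at 4 weeks, and overlapped. The sum of Rpl14 and Rpl14-ps1 was 164 to 166 CPM in JR5558 and 192 to 225 CPM in C57BL/6J at 4 weeks. Rps15a, of the small subunit, had 134, 130 and 141 CPM in JR5558 at 4 weeks, against 174, 155 and 175 CPM in C57BL/6J. It fell by 0.32 (SE 0.08, edgeR adjusted p of 0.0166). At 8 weeks Rps15a had 145, 143 and 164 CPM in JR5558, against 177, 182 and 170 CPM in C57BL/6J. Those groups did not overlap either, but it did not pass there, except in 1 of 15 alternatives. Its copies Rps15a-ps3, Rps15a-ps5 and Rps15a-ps7 rose at 4 weeks. Rps15a-ps3 was at 1.28 to 3.04 CPM in JR5558, against 0.05 to 0.22 CPM in C57BL/6J. Of 13 alternatives, 2 ended the call of Rps15a-ps5 and 6 that of Rps15a-ps7.

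Among 303 named copies outside the member set, 66 could be tested. In JR5558, 9 rose and 2 fell at 4 weeks, and 7 rose and 1 fell at 8 weeks. Over all tested genes, 3.27% rose and 2.90% fell at 4 weeks, and 2.54% rose and 2.63% fell at 8 weeks. The copies that rose at 4 weeks were those of Rpl3, Rps13, Rps2, Rps15a and Rpl30. The first 4 of these genes were among the 5 members that fell. The 2 copies that fell at 4 weeks, Rps13-ps2 and Rps2-ps10, belong to Rps13 and Rps2, so copies of these members went in both directions. Leaving out libraries moved the count of lower members at 4 weeks: it was 12 without C57BL/6J replicate 3 and 3 without JR5558 replicate 1. Rpl3, Rps2 and Rpl14 passed under every alternative that was run, whereas Rps13 and Rps15a did not.

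At 8 weeks, Rpl3 was the member that fell in JR5558, and none rose. Of all tested genes, 2.63% fell and 2.54% rose. At an unadjusted p under 0.05, 5 members were lower and 2 higher, against 8.84% and 8.55% of all genes. The groups did not overlap for 6 lower and 10 higher members, against 15.3% and 14.9%. DESeq2 also called none higher. The median log2 fold change of the members was 0.05. It was -0.03 without JR5558 replicate 3, which had the largest sum, and then 2 members fell. Without C57BL/6J replicate 3, 1 member passed as higher.

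Between ages in JR5558, 9 of the 85 tested members rose at 8 weeks and none fell. Of all tested genes, 0.676% rose and 0.835% fell. At an unadjusted p under 0.05, 56 members were higher and 1 lower, against 8.49% and 8.38% of all genes. DESeq2 called none lower. The log2 fold change was above 0 for 79 members, 92.9%, against 48.5% of all tested genes. Its median was 0.28 over the members and -0.01 over all tested genes. The groups did not overlap for 54 members that were higher at 8 weeks, against 12.0% of all tested genes. The large subunit gave 5 of 47 tested members that rose, the small subunit 4 of 35, and the stalk 0 of 3.

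**Figure D3:**
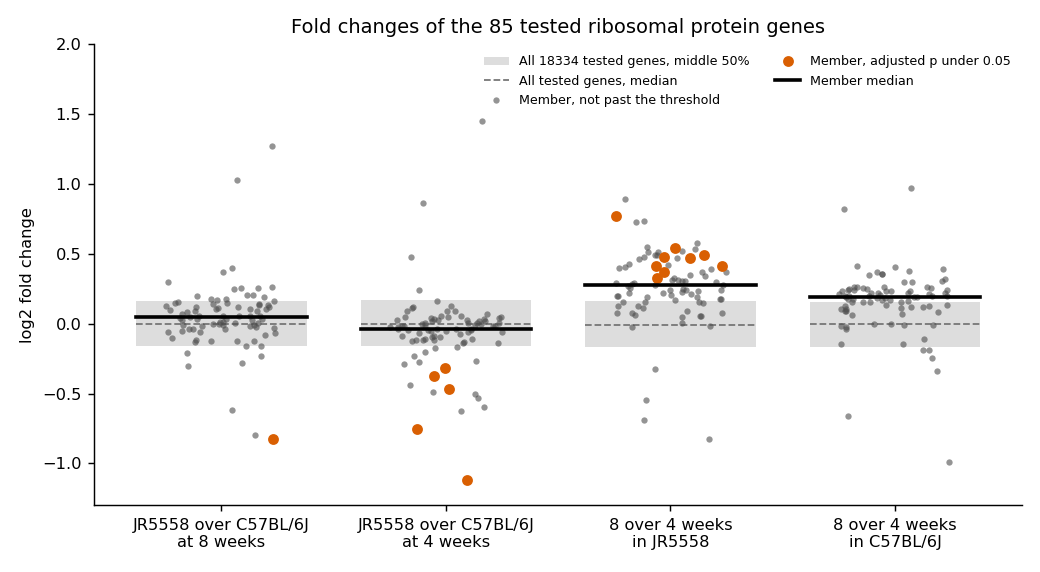
Log2 fold change of the 85 tested members (points) in 4 comparisons. Orange points passed an adjusted p of 0.05, the thick line is the member median, and the grey band and dashed line give the middle 50% and the median of all 18334 tested genes. The member median stands at 0.28 between ages in JR5558 and at 0.19 between ages in C57BL/6J.

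Of the large subunit, Rpl13a had 17.2, 15.2 and 17.4 CPM in JR5558 at 8 weeks, against 9.28, 9.78 and 10.1 CPM at 4 weeks. RPL13A is known in human cells to leave the ribosome and repress inflammatory transcripts. Rpl13a rose by 0.77 ± 0.14 on the log2 scale (SE, edgeR adjusted p of 0.00591), the largest change among the members that passed. It averaged 13.4 CPM over all libraries. As for Rpl24, copies under other symbols were not covered, so the level of Rpl13a is uncertain. In C57BL/6J it was at 12.5, 13.2 and 16.1 CPM at 8 weeks, against 12.8, 14.9 and 11.8 CPM at 4 weeks, and overlapped.

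Rpl31, at the exit of the nascent peptide tunnel, had 160, 163 and 185 CPM in JR5558 at 8 weeks, against 125, 119 and 137 CPM at 4 weeks, and rose by 0.41. Rpl30 had 127, 150 and 165 CPM at 8 weeks, against 95.8, 99.2 and 122 CPM at 4 weeks, and rose by 0.47. Rpl12, at the base of the stalk, had 116, 113 and 131 CPM at 8 weeks, against 98.8, 97.9 and 91.0 CPM at 4 weeks, and rose by 0.32. The groups did not overlap for any of these, and the edgeR adjusted p ran from 0.0372 for Rpl31 to 0.0431 for Rpl12.

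Of the small subunit, Rps2 had 169, 184 and 180 CPM in JR5558 at 8 weeks, against 133, 132 and 135 CPM at 4 weeks, and rose by 0.41 (edgeR adjusted p of 0.0061). Rps19, whose human gene is mutated in Diamond-Blackfan anaemia, had 95.8, 105 and 120 CPM at 8 weeks, against 68.7, 73.9 and 78.7 CPM at 4 weeks, and rose by 0.54. Rps23, at the decoding centre, had 182, 184 and 213 CPM at 8 weeks, against 144, 129 and 145 CPM at 4 weeks, and rose by 0.47. Rps21 had 119, 108 and 127 CPM at 8 weeks, against 84.7, 81.6 and 84.9 CPM at 4 weeks, and rose by 0.49. No JR5558 8-week library of these genes was as low as a 4-week one, and the edgeR adjusted p of Rps19, Rps23 and Rps21 were 0.0299, 0.0333 and 0.0345.

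**Figure D4:**
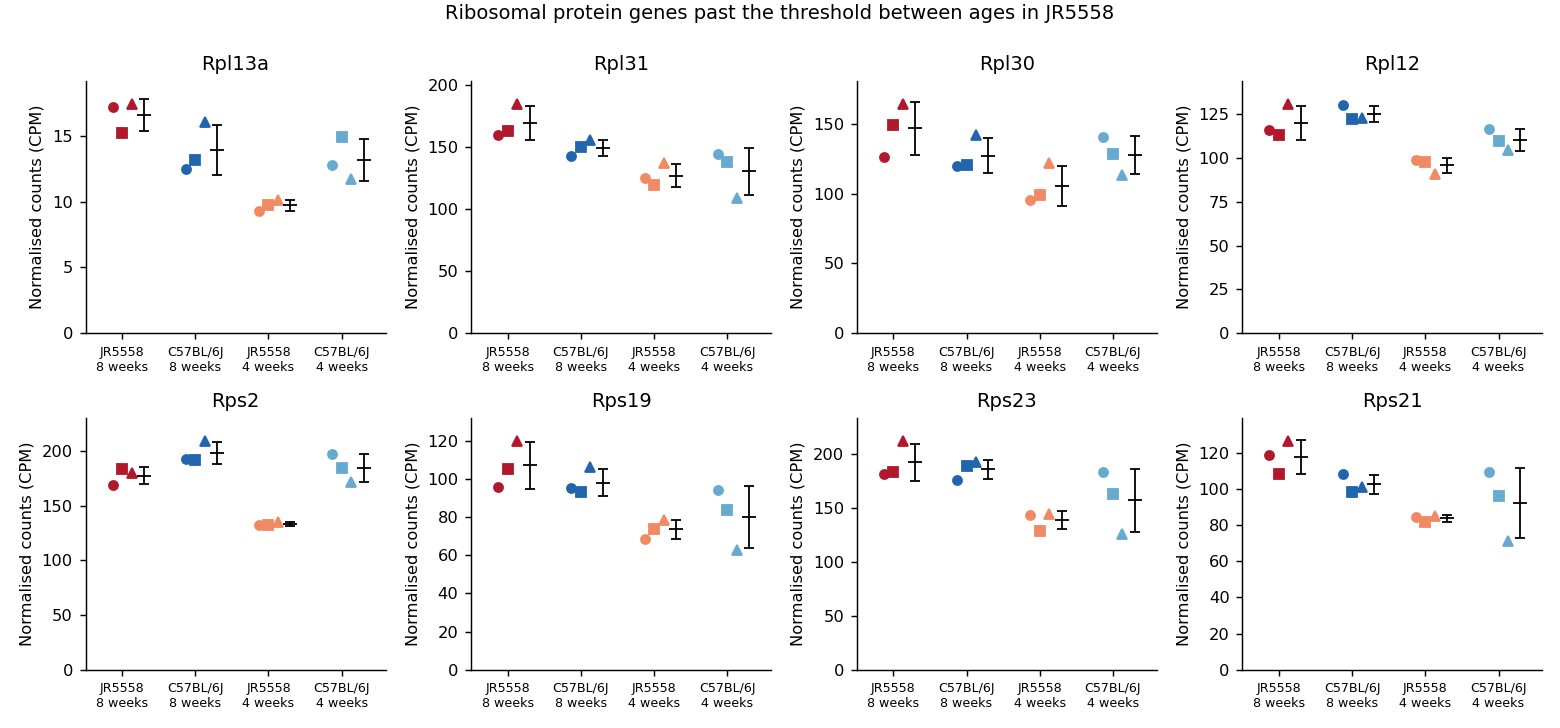
Normalised counts (CPM) by library of 8 members that rose between ages in JR5558. Symbols mark replicates 1 (circle), 2 (square) and 3 (triangle), and black marks the group mean with its SD (n = 3). JR5558 at 8 weeks lies above JR5558 at 4 weeks in every panel.

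The number of members that rose between ages in JR5558 depended on single libraries. It was 1 without replicate 3 at 8 weeks, 3 without replicate 2 at 8 weeks, 2 without replicate 1 at 4 weeks, 2 without replicate 2 at 4 weeks and 25 without replicate 3 at 4 weeks, and DESeq2 called 24. The member median stayed between 0.21 and 0.33 in these fits. Gene length moved with age as well: among other protein-coding genes, the median log2 fold change in JR5558 was 0.19 for genes of up to 1500 bases, 0.10 up to 2500, 0.05 up to 4000, -0.01 up to 6000 and -0.08 above. The members were short, with a median length of 1739 bases. In the same length classes their medians were 0.38, 0.27, 0.25, 0.32 and 0.17, over 30, 30, 19, 4 and 2 members. Higher members without overlap numbered 19, 19, 10, 4 and 2 in these classes. Among the other genes the shares without overlap were 27.7%, 20.8%, 16.7%, 10.3% and 5.2%. Members that passed as higher numbered 2, 4, 2, 1 and 0, against 1.77%, 1.40%, 0.73%, 0.50% and 0.34% of the others. The part of length in the members' difference was not tested.

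In C57BL/6J no member passed between 8 and 4 weeks, where 0.202% of all tested genes rose and 0.229% fell. At an unadjusted p under 0.05, 29 members were higher and none lower, against 6.67% and 7.75% of all genes, and DESeq2 called 3 higher (Rpl27a, Rpl7 and Rplp1). The log2 fold change was above 0 for 69 of the 85 members, and the median was 0.19, against 0.0013 over all tested genes. The groups did not overlap for 25 higher members, against 8.98% of all genes. Rpl7, which had the second smallest p, was at 392, 396 and 388 CPM at 8 weeks, against 329, 324 and 354 CPM at 4 weeks, with a log2 difference of 0.22 ± 0.07 (SE, edgeR adjusted p of 0.138). The median was 0.10 without C57BL/6J 4-week replicate 3, in which several short members were low. Rps29 stood at 133 and 117 CPM in the other two 4-week libraries and 40.3 CPM in that one. Here too, other protein-coding genes of up to 1500 bases had a median of 0.13 and those above 6000 bases one of -0.08. By length class, 5 of 30, 12 of 30, 7 of 19, 0 of 4 and 1 of 2 members were higher without overlap. Among the other genes the shares were 13.8%, 13.4%, 13.9%, 8.7% and 4.5%.

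The change of the strain difference between 8 and 4 weeks was tested in the same fit. No member passed, while 0.0545% of all tested genes did in the positive direction and 0.0382% in the negative. At an unadjusted p under 0.05 there were 7 members, all positive, against 3.39% of all genes (3.8% in the negative direction), led by Rpl13a, Rpl35a, Rps2 and Rpl30, and no DESeq2 call. Rpl13a had a difference of 0.69 ± 0.19 (SE, edgeR adjusted p of 0.354). Age effects in the 2 strains were thus not shown to differ for any member.

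The stalk proteins bind elongation factors, with Rplp0 as the anchor and Rplp1 and Rplp2 as its dimers. Rplp0 averaged 248 ± 16.5 CPM in JR5558 and 251 ± 8.24 CPM in C57BL/6J at 8 weeks, and 238 ± 10.7 CPM in JR5558 and 232 ± 17.3 CPM in C57BL/6J at 4 weeks (SD, n = 3 each). Rplp1 averaged 412 ± 52.5 CPM in JR5558 and 427 ± 6.28 CPM in C57BL/6J at 8 weeks, and 324 ± 54.1 CPM in JR5558 and 323 ± 57.9 CPM in C57BL/6J at 4 weeks. Rplp2 averaged 139 ± 7.30 CPM in JR5558 and 130 ± 5.22 CPM in C57BL/6J at 8 weeks, and 112 ± 8.49 CPM in JR5558 and 111 ± 13.2 CPM in C57BL/6J at 4 weeks. None passed edgeR's test in any comparison, while DESeq2 called Rplp2 higher at 8 weeks in JR5558 and Rplp1 in C57BL/6J. Rplp2 had the smallest adjusted p among them, 0.0872, between ages in JR5558 (edgeR, log2 fold change 0.31).

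Of the members, 4 lie on chromosome X: Rps4x, Rpl10, which is added late in large-subunit assembly, Rpl39, in the peptide exit tunnel, and Rpl36a. None passed in any comparison, although the JR5558 4-week libraries stood apart in Xist and Ddx3y. At 4 weeks their log2 fold changes in JR5558 were 0.05, 0.03, 0.03 and 0.16. Between ages in JR5558 they were 0.09, 0.15, 0.05 and 0.15, with a median of 0.12, against 0.29 for the 81 tested members on other chromosomes.

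Paralogue members stood below their partners per kilobase, Rpl22l1 at 11.2 against 46.0 CPM per kilobase for Rpl22, Rps27l at 14.7 against 90.3 for Rps27, and Rpl7l1 at 15.1 against 131 for Rpl7. Rpl22l1, which can replace Rpl22 in ribosomes, averaged 26.1 ± 5.19 CPM in JR5558 and 24.3 ± 1.08 CPM in C57BL/6J at 8 weeks, and 18.4 ± 4.45 CPM in JR5558 and 20.3 ± 5.38 CPM in C57BL/6J at 4 weeks (SD, n = 3 each). Rpl22 stood at 112 to 162 CPM over all libraries. The coding sequences of the pair are 70.03% identical. Rps27l, a known p53 target, ran from 10.6 to 13.8 CPM, and Rpl7l1, a nucleolar factor of large-subunit assembly, from 46.4 to 58.9 CPM. None of these paralogues passed in any comparison.

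Within groups, the members had a median coefficient of variation of 10.6%, against 12.6% over all tested genes, which were not matched for level. A few, chosen after their values were seen, varied far more. Rps27 had 75.5, 114 and 161 CPM in JR5558 at 8 weeks, against 141, 163 and 47.7 CPM in C57BL/6J at 8 weeks. At 4 weeks it had 135, 68.8 and 45.5 CPM in JR5558, against 39.2, 49.9 and 90.0 CPM in C57BL/6J.

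Rps27rt, whose coding bases are the same, had more counts than Rps27 in 7 of the 12 libraries. Its values were 84.7, 25.2 and 32.5 CPM in JR5558 and 60.8, 29.4 and 128 CPM in C57BL/6J at 8 weeks, and 25.3, 90.3 and 114 CPM in JR5558 and 118, 119 and 109 CPM in C57BL/6J at 4 weeks. The sum of both genes ran from 140 to 202 CPM, and its coefficient of variation within groups was 10.8%, against 48.7% for Rps27 and 48.5% for Rps27rt.

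Rpl17, of the peptide exit tunnel, and its copies Rpl17-ps10 and Rpl17-ps3, which share 99.28% and 99.64% of its coding bases, also divided their counts differently from library to library. Rpl17 alone varied by 24.3% within groups, and its sum with both copies, 180 to 237 CPM, by 6.31%. Rpl17-ps10 had more counts than Rpl17 in 10 of 12 libraries. Rpl21 varied by 34.8% alone and 24.5% with Rpl21-ps15. Rps27a, which encodes ubiquitin fused to a small-subunit protein, had a wide spread within groups, at 77.5, 198 and 224 CPM in JR5558 and 186, 78.5 and 199 CPM in C57BL/6J at 8 weeks, and 137, 57.7 and 73.6 CPM in JR5558 and 111, 96.8 and 55.9 CPM in C57BL/6J at 4 weeks. It passed in no comparison. Of the reads of Rps10 and its copy Rps10-ps2, which shares 93.73% of its coding bases, Rps10 took 5.27 CPM on average and the copy 47.7 CPM, neither per length.

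**Figure D5:**
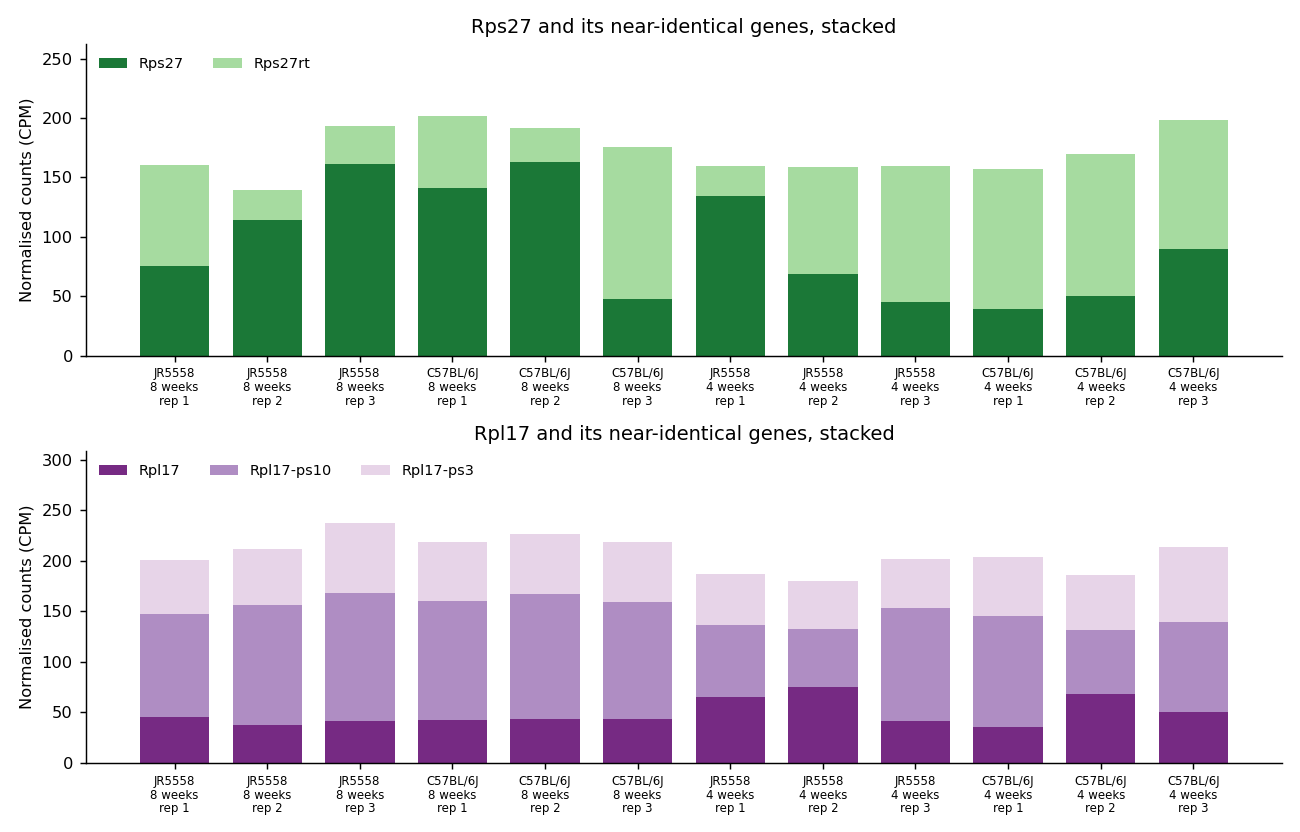
Stacked normalised counts (CPM) per library of Rps27 with Rps27rt (top) and of Rpl17 with 2 pseudogene copies (bottom). The split between the genes changes from library to library within groups, while the total runs from 140 to 202 CPM (top) and from 180 to 237 CPM (bottom).

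Ribosomal proteins outside the symbol rule were read in the same comparisons. Fau, a ubiquitin-like fusion with a small-subunit protein, had 212, 233 and 254 CPM in JR5558 at 8 weeks, against 152, 159 and 169 CPM at 4 weeks. It rose by 0.54 on the log2 scale (SE 0.10, edgeR adjusted p of 0.0085). Rpsa and Rack1 passed in none. Over 15 alternatives, this list gave 0 to 2 calls between ages in JR5558, so the call of Fau was not kept in all.

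Calls in other lists of the translation machinery are given beside the share over all tested genes. That share was 0.676% higher and 0.835% lower between ages in JR5558. For the strains it was 3.27% higher and 2.90% lower at 4 weeks, and 2.54% higher and 2.63% lower at 8 weeks. Between ages in JR5558, none of 77 mitochondrial ribosomal proteins passed, at a median log2 fold change of 0.19. None of 40 ribosome biogenesis factors (median 0.12), 14 RNA polymerase I genes (0.10) or 18 elongation factors and other pyrimidine-start mRNAs (0.09) passed, and none of these 3 lists gave a call in the other comparisons. Of 29 initiation factors, Eif2s3x, X-linked, rose by 0.85 between ages in JR5558 (edgeR adjusted p of 9.21e-06). It also fell by 0.69 in JR5558 at 4 weeks (edgeR adjusted p of 1.32e-05), at 80.5, 80.1 and 85.3 CPM in JR5558, against 136, 118 and 142 CPM in C57BL/6J. Eif2s3x escapes X inactivation in mice.

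Eif3j1, an initiation factor subunit, had log2 fold changes of -1.35 at 4 weeks and -1.06 at 8 weeks between the strains, with edgeR adjusted p of 1.01e-07 and 3.13e-06. It had 16.5, 14.0 and 18.1 CPM in JR5558 at 4 weeks, against 39.3, 40.0 and 44.9 CPM in C57BL/6J. Of 18 tested genes of mTORC1, LARP1 and MYC control, Rps6kb1, the kinase of ribosomal protein S6, fell in JR5558 at 4 weeks by 0.31 (edgeR adjusted p of 0.049), and Tsc2, an inhibitor of mTORC1, fell at 8 weeks by 0.36 (edgeR adjusted p of 0.0166). Of the mitochondrial ribosomal proteins, Mrps10 rose by 0.47 in JR5558 at 4 weeks, while Mrpl55 and Mrpl48 fell by 0.57 and 0.31 on the log2 scale (edgeR adjusted p of 0.00565, 0.00717 and 0.032). Mrpl55 also fell at 8 weeks, by 0.48 (edgeR adjusted p of 0.0246). Nemf, of ribosome-associated quality control, fell in JR5558 at 8 weeks by 0.27 (edgeR adjusted p of 0.0494). Plk2, of the p53 target list, rose at 8 weeks by 0.76 (edgeR adjusted p of 0.000225). Some of these calls rested on single libraries. The quality control list gave 0 calls when any 1 of the 6 8-week libraries was left out. The mTORC1 list gave 0 at 4 weeks when JR5558 replicate 3 or any single C57BL/6J replicate was left out, and 0 at 8 weeks without JR5558 replicate 1 or 3 or C57BL/6J replicate 1 or 2. The mitochondrial list gave 0 at 8 weeks when any single JR5558 replicate or C57BL/6J replicate 2 was left out.

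Promoters of 66 members were found in the RefSeq table (GRCm38.p6, 250 bases before to 50 after the gene start). The letters CGGAAG, on either strand, were in 65.2% of them, against 21.5% of 17492 protein-coding promoters. CTCTTT was in 40.9% against 21.6%, GGGCGG in 59.1% against 46.3%, and TATAAA in 9.10% against 13.3%. Of the 7 members that rose between ages in JR5558 and had a promoter, 4 held CGGAAG, 3 CTCTTT, 7 GGGCGG and 1 TATAAA. In the 100 bases before the start, Rpl12, Rpl13a, Rpl31, Rps19, Rps2 and Rps23 held no CGGAAG. Those of Rps21 are shown because they hold 3 matches of CGGAAG, in capitals (chr2:180257279-180257378, GRCm38.p6, plus strand).
Rps21: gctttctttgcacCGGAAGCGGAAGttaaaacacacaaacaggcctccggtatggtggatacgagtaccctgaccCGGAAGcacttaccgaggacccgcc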

How the data were processed

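Retinal poly(A) RNA from 12 mice was sequenced. Of tools, the submitters' processing notes name fastp, then HISAT2 (2.0.5) and, for counting, featureCounts (1.5.0-p3), and mm10 as genome build; how reads with several matching places and the strand were handled is not given in the sources used here. The deposited table, per the file headers, holds gene counts by the authors, their FPKM values, and, for each of their comparisons, normalised group means (recorded here as a score), log2 fold changes and p-values. Only the counts and gene lengths were used.

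Tests used edgeR 4.0.16 (quasi-likelihood, TMM scaling, filterByExpr) on one model of the 4 groups, with Benjamini-Hochberg adjustment over 18334 genes. DESeq2 1.42.0, other scalings and filters, fits of only the groups compared, a replicate block, each library left out and pseudogene copies added were alternatives, and the test was checked on simulated data. Same-numbered libraries did not deviate together (correlations from -0.184 to 0.101), so the numbers were not treated as pairs. Sequences were aligned with edlib 1.3.9.post1. Promoter motifs were searched as exact letters on both strands.

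The members and gene lists were chosen with earlier results of these data known. Named were, for each comparison, up to 6 members past the threshold in each direction by adjusted p, the paralogue symbols, the chromosome X and stalk members, the 3 highest and 3 lowest per kilobase and up to 3 called genes of each other list; Rpl31, Rpl30 and Rpl12, called with age, were added. Some genes these rules name are not reported here. Any other gene was picked with its values in view. Depth was 18029611 to 23739886 counts per library. The limit for a gene at 0 is 3 counts over all 12 libraries and covers counting error only.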

Additional observations from a re-analysis of the deposited data

How the results depend on the processing

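The direction of every member median between ages was the same in all alternatives, from 0.21 to 0.33 in JR5558 and 0.10 to 0.24 in C57BL/6J. The strain medians lay between -0.14 and 0.03 at 4 weeks and between -0.03 and 0.10 at 8 weeks, on both sides of 0. Counts of calls moved more. Members that rose with age in JR5558 numbered 24 with DESeq2, 26 in a fit of only the groups compared and 42 with no filter on low counts. Without 1 library they numbered 1 to 25, and those that fell 0 to 1. With no filter, 2 fell with age in JR5558, and 9 rose and 1 fell in C57BL/6J, where DESeq2 called 3 higher. Between strains at 4 weeks, 1 rose and 8 fell with no filter, and 3 to 12 fell without 1 library. At 8 weeks, 3 rose and 3 fell with no filter, 5 rose and 2 fell in a fit of only the groups compared, and without 1 library 0 to 1 rose and 1 to 2 fell. With no filter, 2 members passed as a higher strain difference at 8 weeks. The cause of these shifts was not tested. The summed level in C57BL/6J at 8 weeks was 13600 CPM without scaling factors and 14480 CPM with named copies added.

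With the replicate number as a block, 5 members rose with age in JR5558, all among the 9; the numbers do not pair the samples, and 1 of 18 same-number correlations was over 0.1.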

Other observations

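The members that DESeq2 called between ages in JR5558 held all 9 that edgeR called. The 15 others included Rpl11, Rpl23, Rpl32, Rpl37, Rps3, Rps16 and Rps26. Among those named, Rps26 had a DESeq2 log2 fold change of 0.27 and Rpl37 one of 0.52. Rps29, whose groups did not overlap in JR5558, had 137, 124 and 163 CPM at 8 weeks, against 80.8, 93.7 and 116 CPM at 4 weeks. Of the named copies, Rpl30-ps10, on chromosome X, rose between ages in C57BL/6J by 0.99 (edgeR adjusted p of 0.0181), at 11.7, 15.7 and 13.6 CPM at 8 weeks, against 5.12, 6.91 and 8.51 CPM at 4 weeks. In JR5558 it had 12.6, 11.8 and 14.6 CPM at 8 weeks, against 12.3, 15.4 and 12.0 CPM at 4 weeks. Rps13-ps2 was lower in JR5558 at both ages, at 0.191 to 0.243 CPM in JR5558 and 1.55 to 2.77 CPM in C57BL/6J at 8 weeks, and 0.147 to 0.209 CPM in JR5558 and 0.80 to 2.02 CPM in C57BL/6J at 4 weeks. These genes were chosen after their values were seen.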
